A study of Mus musculus with 6 samples.

Results

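The genes described here are interferon-stimulated genes, which cells switch on when type I or type II interferon reaches their receptors. They were chosen by name, from a list of 40 genes that type I or type II interferon is known to induce, and all 40 were among the 54532 genes listed in the count table of whole mouse hearts. The choice was made with earlier results of these data known, so shares of the members beside all tested genes are descriptions only. Of the 40, 39 had enough counts for a test, out of 14866 genes tested. The hearts came from 3-month-old male mice on the C57BL/6 background that differed in the affinity of the Na/K-ATPase α1 subunit for cardiotonic steroids. Mice 368, 369 and 370 were α1r/rα2s/s and kept the naturally resistant rodent α1 (resistant hearts). Mice 379, 380 and 381 were α1s/sα2s/s and carried a sensitive α1 through substitutions knocked into the endogenous gene in every tissue (sensitive hearts). All 6 mice shared the naturally sensitive α2s/s, were untreated, and gave 1 heart each.

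Most interferon-stimulated genes had a lower mean in sensitive than in resistant hearts, but none of the 39 passed the test. The fitted log2 fold change was below 0 for 34 of them (87.2%, against 51.6% of all tested genes), with a median of -0.24. Ddx58, Gbp3, Oasl2, Usp18 and Mx1 were among the lower genes, while Iigp1 was the 1 member with a higher mean and an unadjusted p under 0.05. Hearts of the same genotype also differed from each other over the whole list, with mouse 370 lowest of the resistant hearts and mouse 381 lowest of the sensitive hearts for most members.

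Type I interferons signal through the receptor chains Ifnar1 and Ifnar2 and the kinases Jak1 and Tyk2, which phosphorylate Stat proteins. Stat2 and Irf9 are subunits of the resulting factor ISGF3, which binds the interferon-stimulated response element (ISRE) in the promoters of its targets, whereas type II interferon acts through the gamma-activated site (GAS). The induced proteins sense foreign nucleic acid, block viral translation and replication, attach the ubiquitin-like protein Isg15 to other proteins, and coat the vacuoles of intracellular pathogens. In the heart, resident macrophages, endothelial cells and cardiomyocytes are all known to express such genes at a low level without infection.

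RNA-seq reads were counted per gene, with 19309312 to 20470065 counts per heart and 21234 to 22515 genes detected. The 40 genes together took 10183 to 15302 of these counts, or 0.0498% to 0.0756%. Mitochondrially encoded genes took 23.4% to 24.4% of the counts in resistant hearts and 25.01% to 25.98% in sensitive hearts, without overlap. The 6 cardiomyocyte markers, led by Myh6, summed to 38427 to 48853 CPM (counts relative to the TMM-scaled library size). In whole-heart RNA, fewer cells of a type and less RNA per cell cannot be told apart.

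The promoters of 6 members are shown because they hold an ISRE core, the element through which ISGF3 acts, and belong to members with an unadjusted p under 0.05. The core was searched as GAAA, any 2 bases and GAAA again, on both strands, so that it also reads TTTC, any 2 bases and TTTC, and overlapping matches were counted. RefSeq promoters on GRCm38.p6, each spanning 250 bases before to 50 after the transcription start, were matched to 29 of the 40 genes and gave 33 promoters. Of these, 17 held the core (51.5%), as did 3.44% of all 32851 promoters in the table. The GAS sequence TTCNNNGAA, which is its own reverse complement, was found in 8 of the 33 (24.2%) and in 8.3% of all promoters. The genes without a matched promoter were Oas2, Dhx58, Zbp1, Usp18, Parp9, Parp14, Mx1, Mx2, Iigp1, Rtp4 and Ifi27. In the 6 sequences, read 5′ to 3′ on the strand of the gene, capitals mark the ISRE core or a run of overlapping cores.
Ddx58: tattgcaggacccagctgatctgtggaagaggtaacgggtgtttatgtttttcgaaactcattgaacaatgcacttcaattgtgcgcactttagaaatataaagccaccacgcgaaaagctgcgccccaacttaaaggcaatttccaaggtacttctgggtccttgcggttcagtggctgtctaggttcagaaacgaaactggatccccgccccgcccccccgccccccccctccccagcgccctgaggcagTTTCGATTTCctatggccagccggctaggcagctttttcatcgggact
Gbp3: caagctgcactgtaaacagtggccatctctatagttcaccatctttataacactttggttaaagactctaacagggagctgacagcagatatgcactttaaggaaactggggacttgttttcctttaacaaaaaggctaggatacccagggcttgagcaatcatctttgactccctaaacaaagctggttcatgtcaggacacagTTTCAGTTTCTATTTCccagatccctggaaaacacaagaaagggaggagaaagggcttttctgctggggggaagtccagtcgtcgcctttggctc
Ifih1: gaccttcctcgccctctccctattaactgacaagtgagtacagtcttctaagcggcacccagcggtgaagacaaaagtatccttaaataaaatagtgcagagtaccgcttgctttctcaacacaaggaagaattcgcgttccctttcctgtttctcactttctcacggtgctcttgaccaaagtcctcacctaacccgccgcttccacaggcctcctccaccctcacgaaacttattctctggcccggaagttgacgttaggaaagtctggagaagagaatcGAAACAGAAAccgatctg
Irgm1: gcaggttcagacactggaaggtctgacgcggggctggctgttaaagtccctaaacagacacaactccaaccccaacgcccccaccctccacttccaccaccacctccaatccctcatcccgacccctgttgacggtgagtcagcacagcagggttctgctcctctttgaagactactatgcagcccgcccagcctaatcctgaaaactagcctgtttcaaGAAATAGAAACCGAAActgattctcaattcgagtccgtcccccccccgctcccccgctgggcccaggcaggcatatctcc
Stat2: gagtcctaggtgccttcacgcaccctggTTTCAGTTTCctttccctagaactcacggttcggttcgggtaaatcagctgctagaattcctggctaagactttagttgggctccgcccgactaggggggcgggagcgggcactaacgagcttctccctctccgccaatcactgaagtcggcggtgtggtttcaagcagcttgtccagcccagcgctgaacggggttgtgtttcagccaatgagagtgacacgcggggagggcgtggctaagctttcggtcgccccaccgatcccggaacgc
Oas1a: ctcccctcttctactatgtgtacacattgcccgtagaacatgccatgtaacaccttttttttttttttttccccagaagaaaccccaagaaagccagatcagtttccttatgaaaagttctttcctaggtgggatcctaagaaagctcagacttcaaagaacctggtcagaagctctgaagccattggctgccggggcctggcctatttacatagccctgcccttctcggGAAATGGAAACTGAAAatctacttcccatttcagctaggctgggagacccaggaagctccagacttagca

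The Ddx58 promoter lies at chr4:40239776-40240075 on the minus strand, and its core starts 2 bases after the start site. Gbp3 has 2 promoters, and the one shown (chr3:142559794-142560093, plus strand) has overlapping cores from 45 bases upstream. The other (chr3:142560106-142560405) holds no core. The Irgm1 promoter (chr11:48871371-48871670, minus strand) has overlapping cores from 30 bases upstream. The Oas1a promoter (chr5:120907476-120907775, minus strand) has overlapping cores from 20 bases upstream. The core of Stat2 (chr10:128270248-128270547, plus strand) lies farthest out, at 222 bases upstream, and that of Ifih1 (chr2:62646206-62646505, minus strand) lies 32 bases downstream of the start. A match describes letters in the window and not a bound site.

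The comparison of sensitive with resistant hearts asks whether the level of each gene differs with the affinity of α1 for cardiotonic steroids. With edgeR's quasi-likelihood test and an adjusted p under 0.05 as the threshold, 1.44% of all tested genes were called in either direction. Of the 39 members, 0 were called lower, against 0.659% of all tested genes. Likewise 0 members were called higher, against 0.78% of all tested genes. DESeq2 also called 0 members in either direction, but gave no adjusted p for 9 low-count members, Usp18, Oas1a and Mx1 among them. At an unadjusted p under 0.05, edgeR found 10 members lower (25.6%, against 7.27% of all tested genes) and 1 higher (2.56%, against 7.19%), and DESeq2 found 7 lower and 0 higher. The median log2 fold change of the members was -0.24, with a range from -1.28 to 0.49, and the median over all tested genes was -0.01. The smallest adjusted p among the members was 0.108, for Ddx58. Leaving out mouse 381 brought the median to -0.14, with 29 of 40 members below 0 and 4 lower at an unadjusted p under 0.05. Leaving out mouse 370 brought it to -0.36, with 38 of 40 below 0 and 15 lower at that threshold. The unadjusted shares of all tested genes, 7.27% and 7.19%, belong to edgeR with every heart included. For DESeq2 and for the fits that left out a heart, these shares were not computed.

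**Figure D1:**
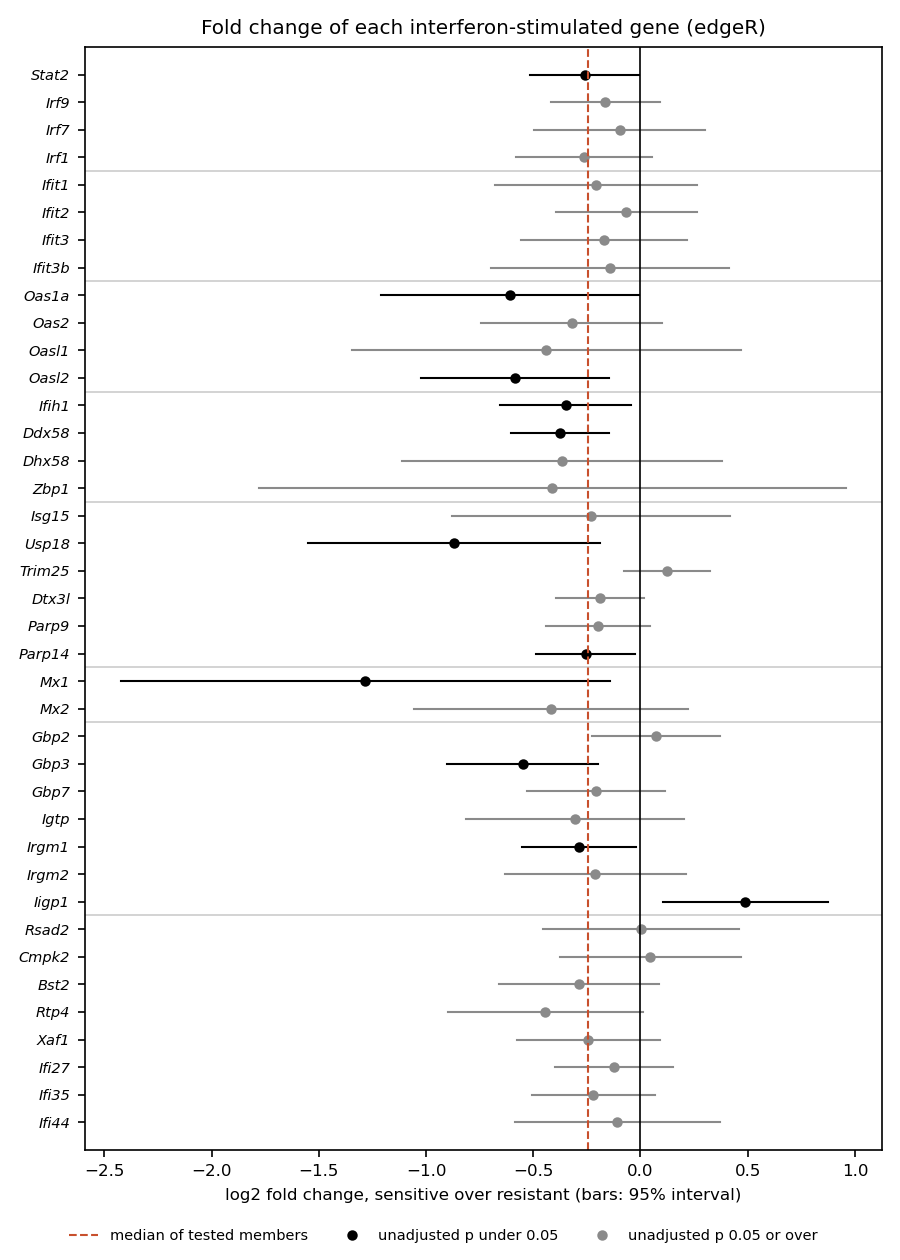
Log2 fold change of each tested interferon-stimulated gene, sensitive over resistant hearts (x axis), with its 95% interval from edgeR as a bar and genes grouped by role. The median of the 39 genes (dashed line) is -0.24, 34 points lie below 0, and black points mark the 11 genes with an unadjusted p under 0.05, of which Iigp1 alone lies above 0.

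Resistant and sensitive hearts did not overlap for 4 members, all lower in sensitive hearts, namely Ddx58, Usp18, Mx1 and Dtx3l. These were 10.3% of the 39 members, close to the 9.98% of all tested genes that did so in this direction. Conversely, 0 members were higher without overlap, against 10% of all tested genes. The wider of the within-genotype ranges of log2 CPM exceeded the difference between genotype means for 37 of the 39 members (94.9%), compared with 88.4% of all tested genes.

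The subunits of ISGF3 and the interferon regulatory factors came to 4 members, all with a log2 fold change below 0 and a median of -0.21. Stat2 (ENSMUSG00000040033, chr10:128270559-128292849), the Stat protein particular to type I and type III signalling, was measured at 23.5, 27.6 and 20.6 CPM in resistant hearts and at 20.2, 21.8 and 17.9 CPM in sensitive hearts. The genotypes overlapped through mouse 370, which lay below mouse 380. The log2 fold change of Stat2 was -0.26 (SE 0.12, unadjusted p = 0.0457, adjusted p = 0.335 by edgeR), and -0.14 without mouse 369. Irf1 (chr11:53770014-53778374), a transcription factor induced most directly by type II interferon, was measured at 25.7, 20.4 and 16.6 CPM in resistant hearts and 20.01, 17.5 and 14.8 CPM in sensitive hearts. The genotypes overlapped, with 20.9 ± 4.55 CPM against 17.4 ± 2.59 CPM (SD, n = 3). For Irf1 edgeR gave a log2 fold change of -0.26 (SE 0.15, adjusted p = 0.44), which came to -0.09 without mouse 368 and -0.40 without mouse 370. Irf9, the DNA-binding subunit of ISGF3, had a log2 fold change of -0.16, and Irf7, which amplifies interferon transcription, one of -0.10.

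Nucleic acid sensors were lower on average for all 4 members, with a median log2 fold change of -0.37. Ddx58 (ENSMUSG00000040296, chr4:40203773-40239828), which encodes the cytosolic RNA sensor RIG-I, was measured at 19.1, 19.97 and 18.3 CPM in resistant hearts. In sensitive hearts it was measured at 15.6, 14.99 and 13.6 CPM. Every sensitive heart lay below every resistant heart, and the hearts of each genotype lay close together (19.1 ± 0.841 against 14.7 ± 1.05 CPM, SD, n = 3). The log2 fold change was -0.37 (SE 0.11, 95% interval -0.60 to -0.15), with an unadjusted p of 0.00325 and an adjusted p of 0.108 by edgeR. Over the 13 alternatives its log2 fold change ran from -0.42 to -0.32 and its adjusted p from 0.0981 to 0.305.

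Ifih1 (ENSMUSG00000026896, chr2:62595798-62646255) encodes a related sensor of long viral RNA. It was measured at 17.2, 16.8 and 14.4 CPM in resistant hearts and at 12.8, 15.2 and 10.1 CPM in sensitive hearts. Mouse 380 lay above mouse 370, so the genotypes overlapped. For Ifih1 the log2 fold change was -0.35 (SE 0.14, unadjusted p = 0.0285, adjusted p = 0.276 by edgeR), and -0.21 without mouse 381. Zbp1, which senses left-handed nucleic acid and can start necroptosis, was close to the limit of counting, with 35, 27 and 11 counts in resistant hearts and 36, 14 and 2 counts in sensitive hearts. Mice 368 and 379 were alike and mice 370 and 381 were low, and its log2 fold change of -0.41 had a wide 95% interval, from -1.78 to 0.96. Without mouse 381 it was 0.11, and without mouse 379 it was -1.47. Dhx58, a relative of RIG-I without the signalling domain, had a log2 fold change of -0.37 with an interval from -1.11 to 0.38.

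The oligoadenylate synthetase (OAS) family, named for enzymes that foreign RNA activates, held 5 members, of which 4 were tested and lay below 0 (median -0.51). Oasl2 (ENSMUSG00000029561, chr5:114896936-114912234) was measured at 14.9, 13.8 and 10.1 CPM in resistant hearts and at 11.3, 8.68 and 5.86 CPM in sensitive hearts. The lowest resistant heart, mouse 370, lay below the highest sensitive heart, mouse 379. The fitted log2 fold change was -0.59 (SE 0.21, unadjusted p = 0.0122, adjusted p = 0.191 by edgeR), and -0.37 without mouse 381. Oas1a (ENSMUSG00000052776, chr5:120896256-120907521) was measured at 2.77, 4.35 and 3.47 CPM in resistant hearts and 2.13, 1.84 and 2.96 CPM in sensitive hearts. Here mouse 381, low for most members, was the highest sensitive heart and lay above mouse 368. The fit gave a log2 fold change of -0.61 (SE 0.28, unadjusted p = 0.0470, adjusted p = 0.338 by edgeR).

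Oas2, the OAS gene with the highest level per length, was measured at 10.7, 14.5 and 12.3 CPM in resistant hearts and 11.7, 11.9 and 6.43 CPM in sensitive hearts. Mouse 381 alone stood below the other hearts, and the log2 fold change was -0.32 (adjusted p = 0.484 by edgeR), or -0.08 without mouse 381. Oasl1, which restrains translation of Irf7, had a log2 fold change of -0.44 with an interval from -1.35 to 0.47. Oas3 did not reach the count filter, with 6, 14 and 5 counts in resistant hearts and 8, 10 and 1 counts in sensitive hearts.

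The Ifit family, whose proteins act against foreign RNA, showed small differences, with all 4 members below 0 and a median of -0.16. Ifit3, its member with the highest level per length, was measured at 11.6, 11.6 and 7.59 CPM in resistant hearts and at 10.03, 9.995 and 7.37 CPM in sensitive hearts. Each genotype held a low heart, mouse 370 and mouse 381, beside hearts that were alike. The log2 fold change was -0.17 (SE 0.18, adjusted p = 0.718 by edgeR). Ifit1 was measured at 6.49, 7.83 and 5.48 CPM in resistant hearts and 6.603, 6.68 and 3.89 CPM in sensitive hearts, and its log2 fold change was -0.21 (adjusted p = 0.72), or 0.01 without mouse 381. Ifit2 and Ifit3b had log2 fold changes of -0.07 and -0.14. The 4 genes lie together on chromosome 19, and since Ifit3 and Ifit3b are near copies, the split of reads between them is uncertain.

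The Isg15 and ubiquitin group held 6 members, 5 of them below 0 with a group median of -0.22. Usp18 (ENSMUSG00000030107, chr6:121245906-121270917) removes Isg15 from proteins and damps signalling at Ifnar2. It was measured at 3.29, 3.30 and 3.67 CPM in resistant hearts and at 1.89, 2.68 and 1.04 CPM in sensitive hearts. The resistant hearts were nearly alike and all lay above the sensitive hearts, which spread from 20 to 51 counts. The log2 fold change was -0.87 (SE 0.32, 95% interval -1.55 to -0.19), with an unadjusted p of 0.0157 and an adjusted p of 0.214 by edgeR. Over the alternatives its log2 fold change ran from -1.21 to -0.58.

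Isg15 itself was measured at 3.49, 3.87 and 2.31 CPM in resistant hearts and at 3.72, 2.68 and 1.82 CPM in sensitive hearts. The genotypes overlapped widely, and the log2 fold change was -0.23 (adjusted p = 0.779 by edgeR). Trim25, a ubiquitin ligase for RIG-I, had the highest level per length in the group and went the other way, at 50.4, 55.9 and 44.2 CPM in resistant hearts and 56.2, 57.9 and 49.9 CPM in sensitive hearts. Mouse 381 lay below mice 368 and 369, and the log2 fold change was 0.12 (SE 0.09, adjusted p = 0.589 by edgeR).

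Parp14, Parp9 and Dtx3l, neighbours on chromosome 16 that encode ADP-ribosyltransferases and the ubiquitin ligase partner of Parp9, had log2 fold changes of -0.26, -0.20 and -0.19. Parp14 (ENSMUSG00000034422, chr16:35832874-35871544) was measured at 52.7, 49.3 and 45.7 CPM in resistant hearts and at 47.3, 42.3 and 34.0 CPM in sensitive hearts. Only mice 370 and 379 crossed, and the unadjusted p was 0.0307 (adjusted p = 0.286 by edgeR). Without mouse 381 the log2 fold change of Parp14 was -0.13. Dtx3l was measured at 25.1, 24.3 and 23.1 CPM in resistant hearts and at 22.7, 20.3 and 20.6 CPM in sensitive hearts. Its genotypes did not overlap, though mice 370 and 379 lay close together, and its adjusted p was 0.384 by edgeR. Dtx3l and Parp9 overlap by 682 bases on opposite strands, and whether counting used strand is not given in the sources used here.

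The Mx GTPases, dynamin-like proteins that trap viral nucleocapsids, had a median log2 fold change of -0.85 at very low levels. Mx1 (ENSMUSG00000000386, chr16:97447035-97462907) had 29, 27 and 14 counts in resistant hearts and 14, 3 and 10 counts in sensitive hearts. In CPM the lowest resistant heart, at 0.703, lay just above the highest sensitive heart, at 0.695. The fitted log2 fold change was -1.28 (SE 0.53, 95% interval -2.42 to -0.14, unadjusted p = 0.0298, adjusted p = 0.282 by edgeR). Laboratory strains such as C57BL/6 are known to carry Mx1 and Mx2 alleles that make no working protein. Mx2 was measured at 3.58, 3.20 and 1.91 CPM in resistant hearts and 2.43, 1.84 and 2.23 CPM in sensitive hearts, with mouse 370 among the sensitive hearts and a log2 fold change of -0.42 (adjusted p = 0.561).

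The guanylate-binding proteins (GBP) and immunity-related GTPases (IRG), which attack the vacuoles of intracellular pathogens, held 7 members and went in both directions, with 5 below 0, 2 above 0 and a median of -0.21. Gbp3 (ENSMUSG00000028268, chr3:142560026-142573209) was measured at 25.6, 25.5 and 15.4 CPM in resistant hearts and at 16.5, 15.9 and 13.1 CPM in sensitive hearts. Mice 368 and 369 stood apart, while mouse 370 lay among the sensitive hearts. The log2 fold change was -0.55 (SE 0.17, 95% interval -0.90 to -0.20), with an unadjusted p of 0.00478 and an adjusted p of 0.129 by edgeR. Without mouse 370 it was -0.75 and passed the threshold (adjusted p = 0.0113). Over the 13 alternatives the adjusted p ran from 0.000873, in edgeR with no filter on low counts, to 0.368.

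Iigp1 (ENSMUSG00000054072, chr18:60376029-60392627), an IRG that acts on the vacuole membrane, had the highest level per length of all 40 genes. It was measured at 103, 73.0 and 48.1 CPM in resistant hearts and at 116, 97.2 and 102 CPM in sensitive hearts. The sensitive hearts lay close together, whereas the resistant hearts ran from mouse 370, the lowest, to mouse 368, which lay among the sensitive hearts. Its log2 fold change was 0.49 (SE 0.18, 95% interval 0.11 to 0.87), with an unadjusted p of 0.0158 and an adjusted p of 0.214 by edgeR. Without mouse 368 it was 0.80 and passed the threshold (adjusted p = 0.0149), and without mouse 370 it was 0.26 (adjusted p = 0.348). Over the 13 alternatives the adjusted p ran from 9.37e-07 to 0.571.

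Irgm1 (ENSMUSG00000046879, chr11:48861968-48871683), a regulator of the other IRG proteins and of autophagy, was measured at 27.2, 21.4 and 20.4 CPM in resistant hearts and 21.1, 18.4 and 16.9 CPM in sensitive hearts. Mouse 379 lay above mouse 370, so the genotypes overlapped, and the log2 fold change was -0.29 (SE 0.12, unadjusted p = 0.0354, adjusted p = 0.305 by edgeR). Without mouse 368 it was -0.15. Gbp2 and Gbp7, next to Gbp3 on chromosome 3, had log2 fold changes of 0.07 and -0.21. Igtp and Irgm2 had log2 fold changes of -0.31 and -0.21 and the same order of hearts at the top, with mouse 368 highest and mouse 379 next. These genes overlap by 7974 bases on the same strand, so their counts are uncertain and they are not independent of each other.

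**Figure D2:**
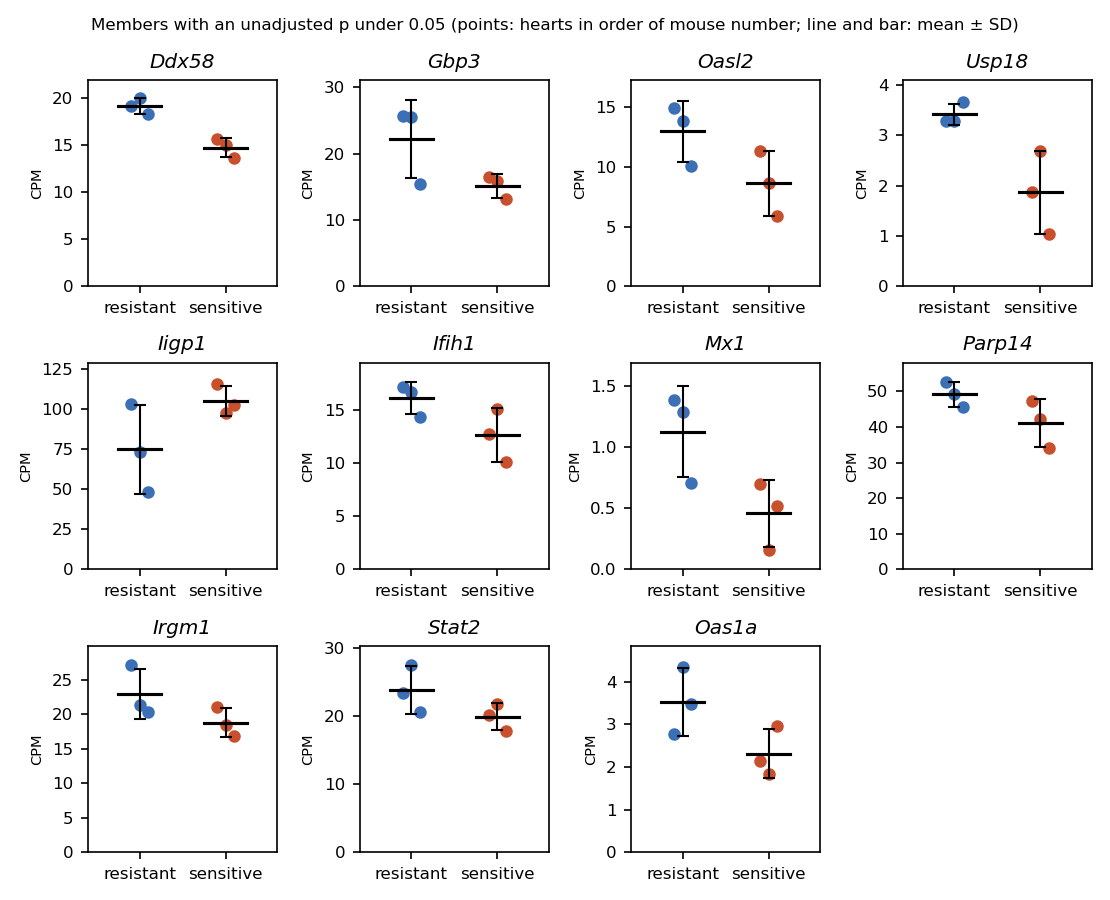
CPM (y axis) in each heart for the 11 members with an unadjusted p under 0.05, with resistant hearts in blue, sensitive hearts in red, and the mean ± SD of 3 hearts as a line and bar. Ddx58, Usp18 and Mx1 do not overlap between genotypes, and for Gbp3 the resistant heart at 15.4 CPM lies among the sensitive hearts.

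The other 8 members had 6 log2 fold changes below 0, a median of -0.17 and no unadjusted p under 0.05. Bst2, or tetherin, which holds budding virus at the cell surface, was the most abundant of them per length. It was measured at 16.3, 19.9 and 12.3 CPM in resistant hearts and at 16.0, 13.2 and 10.5 CPM in sensitive hearts, a log2 fold change of -0.29 (adjusted p = 0.478 by edgeR) with wide overlap. Rtp4, which restricts RNA viruses, was measured at 6.30, 10.2 and 6.48 CPM in resistant hearts and 6.35, 6.00 and 4.56 CPM in sensitive hearts. Mouse 369 alone stood high, and the log2 fold change was -0.44 (adjusted p = 0.357), or -0.18 without that mouse. Rtp4 overlaps another listed transcript, Gm45338, on the same strand, so its count is uncertain.

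Rsad2, which encodes viperin, and its neighbour Cmpk2, a mitochondrial nucleotide kinase, had log2 fold changes of 0.00 and 0.05. Rsad2 was measured at 22.6, 25.6 and 13.9 CPM in resistant hearts and at 24.9, 23.7 and 13.6 CPM in sensitive hearts. Its low hearts, mice 370 and 381, came 1 from each genotype and lay at nearly the same level. The 95% interval of its log2 fold change, from -0.46 to 0.46, does not exclude differences of the size seen in other members. Xaf1, Ifi27, Ifi35 and Ifi44 had log2 fold changes of -0.24, -0.12, -0.22 and -0.11.

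The members varied together from heart to heart within each genotype. Of the resistant hearts, mouse 370 had the lowest log2 CPM for 33 of the 39 members (84.6%, against 35.1% of all tested genes). Of the sensitive hearts, mouse 381 had the lowest for 29 (74.4%, against 36.6%) and mouse 379 the highest for 28 (71.8%, against 32.2%). Over all 6 hearts mouse 381 was lowest for 25 members (64.1%, against 22.6%), and mouse 368 was highest for 18 (46.2%, against 14.4%). Relative to the mean of each gene, the median log2 deviation of the members was 0.23, 0.24 and -0.15 in resistant hearts and 0.09, -0.10 and -0.35 in sensitive hearts. Thus mouse 370 lay below mice 379 and 380, and the genotypes overlapped. The median SD of log2 CPM within a genotype was 0.321 for the members and 0.174 for 9908 tested genes at like levels. Members that share regulators or cells are not independent of each other, and these counts describe 6 hearts.

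**Figure D3:**
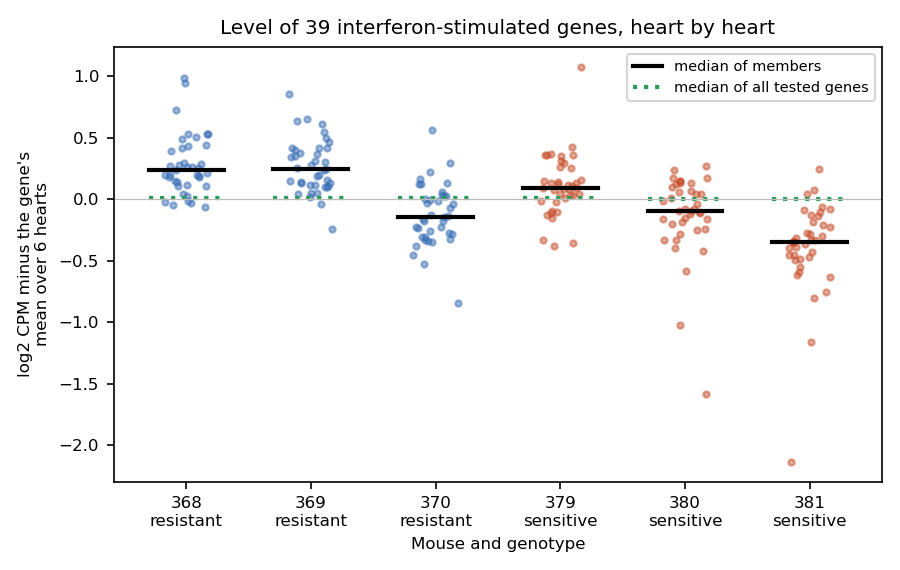
Deviation of log2 CPM from the mean of each gene over 6 hearts (y axis), with 1 point per member in each heart, black lines for the median of the 39 members and green dotted lines for the median of all tested genes. The member medians run from 0.24 in mouse 369 to -0.35 in mouse 381, while the medians of all tested genes stay between 0.00 and 0.01.

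**Figure D4:**
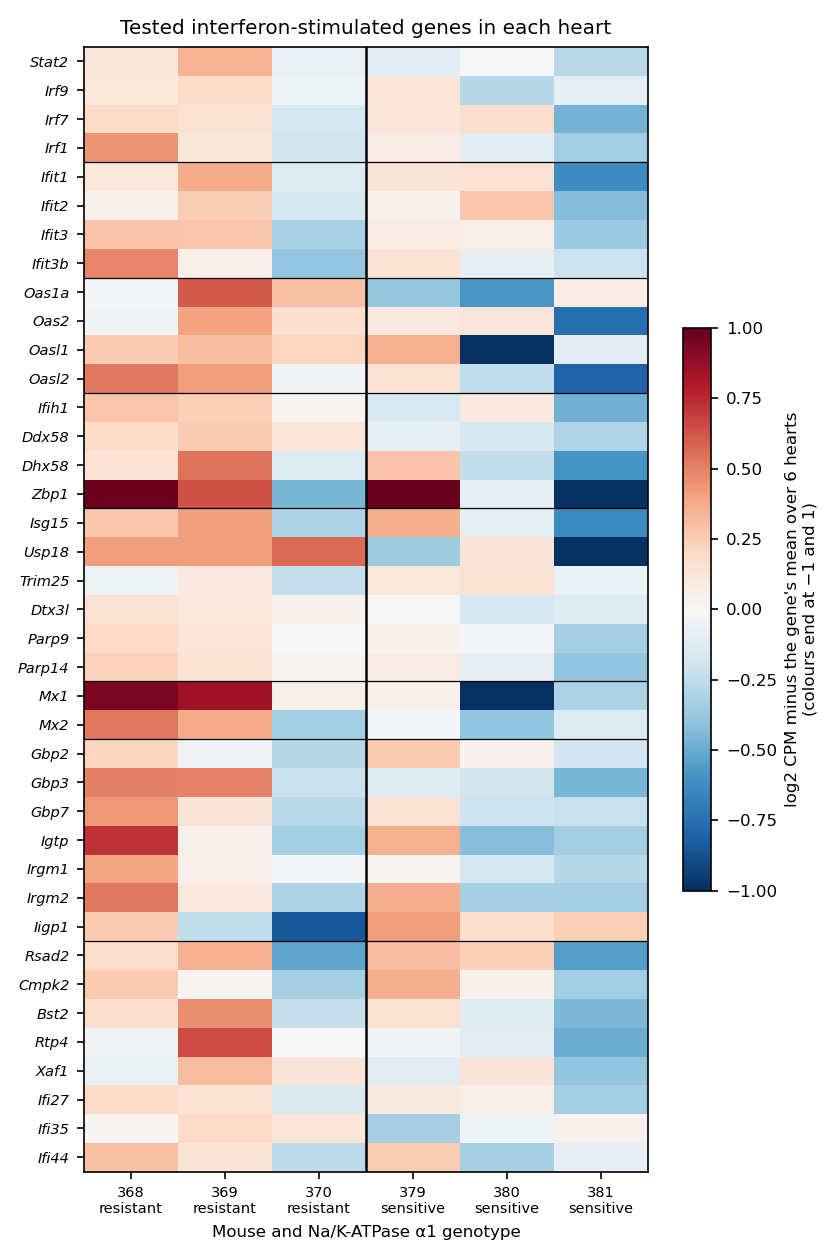
Heat map of the same deviations, with members in rows by role and hearts in columns, red above and blue below the mean of the gene over 6 hearts. Mouse 381 is lowest for 25 of the 39 members, mouse 370 is blue for most, and Iigp1 is blue in mice 369 and 370 and red in the other hearts.

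Per length, the members ran from a mean of 28.8 CPM per kilobase of gene length for Iigp1 to 0.0514 for Oas3, with a median of 3.51 and 32 of 40 above 1. Iigp1 was followed by Bst2 (16.3), Ifi27 (13.6), Trim25 (9.11) and Gbp2 (7.34). Over the 6 hearts Iigp1 ranged from 15.4 to 37.1, Bst2 from 11.6 to 22.0 and Ifi27 from 10.7 to 15.5 on this scale, so these neighbours in the order overlapped. The highest heart for Trim25, at 10.1, lay below the lowest for Ifi27. Oas3, Mx1 (0.209) and Zbp1 (0.290) were lowest.

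Transcripts of the interferons themselves were at or near 0. Of 21 ligand genes, 19 had 0 counts in all 6 hearts, among them Ifnb1 and Ifng, and Ifnk and Ifnz had 3 counts each in total. A count of 0 allows up to 3 counts per heart, and this covers counting error only. The receptors were measured well, and 0 of 6 had an unadjusted p under 0.05. Ifnar1 was measured at 31.8, 32.9 and 28.7 CPM in resistant hearts and 30.4, 35.6 and 26.7 CPM in sensitive hearts, a log2 fold change of -0.01 (SE 0.11). Ifnar2 was at -0.01, Ifngr1 at -0.06, Ifngr2 at -0.11 and Ifnlr1 at 0.21 on the log2 scale.

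Of 5 JAK-STAT transducers, 2 lay below 0 and 0 had an unadjusted p under 0.05. Jak1, Jak2 and Tyk2 had log2 fold changes of 0.03, 0.11 and 0.10.

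Of 7 inhibitors of interferon signalling, 1 lay below 0. This was Socs1, itself induced by interferon, at 0.716, 1.67 and 1.005 CPM in resistant hearts and 0.546, 0.421 and 0.519 CPM in sensitive hearts. Its counts were few, at 15, 35 and 20 in resistant hearts and 11, 8 and 10 in sensitive hearts. Its genotypes did not overlap, and 9.98% of all tested genes were lower without overlap. The log2 fold change of Socs1 was -1.18 (SE 0.48, unadjusted p = 0.0265, adjusted p = 0.27 by edgeR), or -0.78 without mouse 369. DESeq2 gave it no adjusted p. The other 6 lay above 0. The 7 genes summed to 351, 347 and 349 CPM in resistant hearts and 369, 375 and 378 CPM in sensitive hearts, without overlap. An exact two-sided permutation test gave p = 0.1 for this sum, the smallest it can give with 3 hearts per genotype. Most of this sum was Ptpn11, a phosphatase with many substrates, at 270.1, 268.6 and 279.6 CPM in resistant hearts and 290.05, 293.5 and 298.5 CPM in sensitive hearts (log2 fold change 0.11, adjusted p = 0.468). Of 13 genes that sense nucleic acid or induce interferon, 10 lay below 0 and 3 had an unadjusted p under 0.05, namely Irf8 (log2 fold change -0.49), Tlr7 (-0.53) and Tlr3 (-0.39). Over all tested genes, 51.6% lay below 0 and 7.27% were lower at that threshold by edgeR. The 13 genes summed to 160, 170 and 167 CPM in resistant hearts and 158, 154 and 153 CPM in sensitive hearts. This sum was lower without overlap (exact two-sided permutation test, p = 0.1). None of these lists held a gene with an adjusted p under 0.05 by edgeR.

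A further list held 60 interferon-stimulated genes outside the 40, of which 53 were tested. By edgeR with every heart included, 42 of these lay below 0, and 13 were lower and 0 higher at an unadjusted p under 0.05. In that fit 0 had an adjusted p under 0.05, and the median log2 fold change was -0.20. Of all tested genes, 51.6% lay below 0, and 7.27% were lower and 7.19% higher at that unadjusted threshold by edgeR. Slfn5, a Schlafen family gene, was nearest the threshold, at 153, 164 and 140 CPM in resistant hearts and 124, 126 and 103 CPM in sensitive hearts. Every sensitive heart lay below every resistant heart, as held for 8 of the 53 and for 9.98% of all tested genes. For Slfn5 edgeR gave a log2 fold change of -0.37 (SE 0.09, adjusted p = 0.0501). Over the alternatives its adjusted p ran from 0.000491, in edgeR with no filter on low counts, to 0.175, with 0.00378 by DESeq2. It was also under 0.05 with upper-quartile factors, at least 10 counts in every heart and a robust prior. The same held without globin and mitochondrially encoded genes, and without mouse 370. With RLE factors, or with any other heart left out, it was over 0.05. Eif2ak2, the interferon-induced kinase that halts translation, also did not overlap between genotypes, at -0.36 on the log2 scale (adjusted p = 0.129 by edgeR).

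MHC class I and antigen-processing genes, which type II interferon also induces, lay below 0 for 9 of 10, with a median of -0.20 and 0 with an unadjusted p under 0.05. Among all tested genes, 51.6% lay below 0. B2m, the light chain of MHC class I, was measured at 216, 228 and 166 CPM in resistant hearts and 214, 174 and 142 CPM in sensitive hearts. Mice 370 and 381 were again the lowest hearts of their genotypes. B2m had a log2 fold change of -0.20, and that of the peptide transporter Tap1 was -0.39 (adjusted p = 0.427 by edgeR).

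Markers of other heart cells moved with the same hearts. The counts of markers below 0 stand beside 51.6% of all tested genes. The 11 macrophage markers summed to 486, 632 and 404 CPM in resistant hearts and 443, 426 and 362 CPM in sensitive hearts (exact two-sided permutation test, p = 0.3), with 10 of 11 log2 fold changes below 0 and a median of -0.31. Mrc1 came nearest the threshold among them (log2 fold change -0.52, adjusted p = 0.0549 by edgeR), and none of the 11 was at 0. The 6 endothelial markers summed to 983, 1027 and 878 CPM in resistant hearts and 929, 919 and 741 CPM in sensitive hearts (exact two-sided permutation test, p = 0.3), with 4 of 6 below 0. As for the members, mouse 370 was lowest of the resistant hearts and mouse 381 of all hearts in both sums. The part of these cells in the differences was not tested.

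The 6 cardiomyocyte markers were highest in the same hearts, mice 370 and 381, at 48853 and 48185 CPM, and 0 of 6 lay below 0. The 7 smooth muscle and pericyte markers all lay below 0 (sums of 957 to 1044 CPM against 877 to 1003 CPM), and 3 of 5 fibroblast markers did (723 to 810 CPM against 719 to 795 CPM). Neutrophil markers summed to 5.02 to 9.65 CPM in resistant hearts and 1.30 to 5.47 CPM in sensitive hearts, with Ly6g at 0 in all 6. B cell markers all lay below 0 in sums of 9.85 to 23.7 CPM. Of 8 T and NK cell markers 1 was tested, and of 3 markers of plasmacytoid dendritic cells, a known source of interferon, 1 was tested, with summed levels of at most 3.82 and 1.94 CPM in any heart. Red blood cell markers were highest in mouse 380, at 268% of their mean over 6 hearts, and lowest in mouse 381, at 33.7%.

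**Figure D5:**
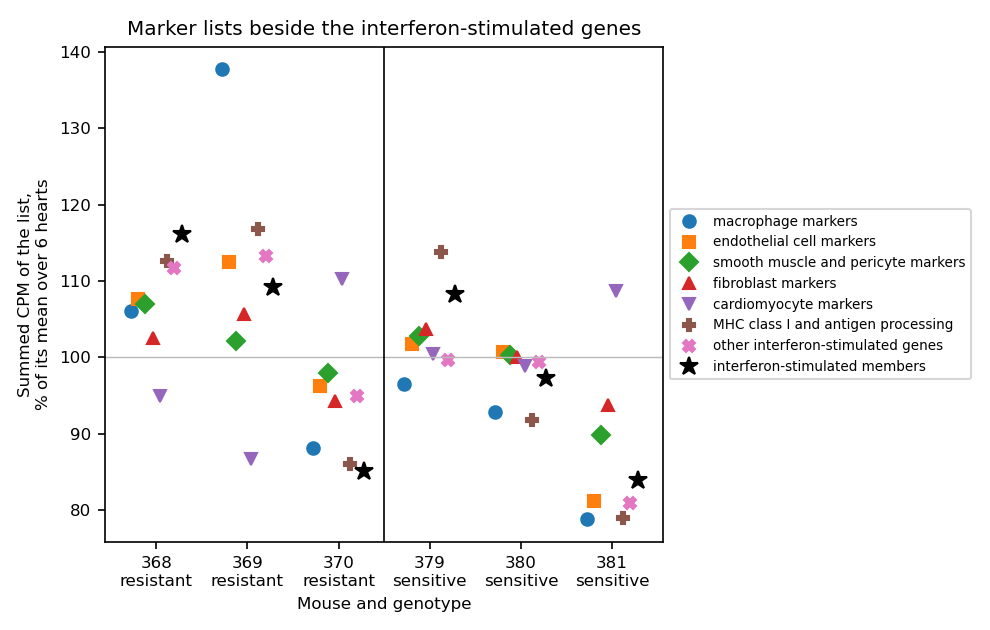
Summed CPM of each list as a percentage of its mean over 6 hearts (y axis), by heart, with the interferon-stimulated members as black stars. The members stand at 85.2% in mouse 370 and 83.9% in mouse 381, macrophage markers at 88.1% and 78.8%, and cardiomyocyte markers at 110% and 109% in the same hearts.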

How the data were processed

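Whole-heart RNA was sequenced by a company, which also did quality control, mapping and counting. The submitters' processing notes name fastp, STAR, featureCounts and mm10, and versions and the strand setting are not given in the sources used here. The authors deposited raw read counts per gene for all 6 hearts, without normalization. Their table of DESeq2 fold changes and p-values was not used. Positions and lengths are those of the count table, and 0 further columns of per-sample values were left unused.

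Counts were analysed in R 4.3.3 with edgeR 4.0.16 (TMM, filterByExpr with a minimum count of 10 and a minimum total of 15, quasi-likelihood test, threshold 0.05 after Benjamini-Hochberg adjustment, no covariates). Log2 CPM used a prior count of 2, and limma 3.58.1 was loaded with edgeR. Alternatives were DESeq2 1.42.0, RLE and upper-quartile factors, other count filters, edgeR's robust prior, removal of globin and mitochondrially encoded genes, and leaving out each heart. The members and lists were chosen with earlier results of these data known. Values of a few genes are left out here. Values are given for members with an unadjusted p under 0.05 and, in each role, for the member with the highest level per length and the one with the largest fold change, with others added for context. On simulated counts of 14866 genes in which 200 changed by 1 on the log2 scale, edgeR recovered 72.5% and DESeq2 71.5%, and 7.05% and 5.92% of their calls were on unchanged genes. The members had a median log2 fold change of -0.24. Their median SD of log2 CPM within a genotype was 0.321, against 0.174 for tested genes at like levels. Recovery at that size and spread was not tested. With 3 hearts per genotype, exact permutation tests cannot give a p under 0.1. The study describes its control mice as littermates, and those of the RNA-seq as age-matched. The labels do not say which hearts shared a litter or batch, so p-values measure the spread between these mice. Whether litter or batch differed with genotype cannot be told.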

Additional observations from a re-analysis of the deposited data

How the results depend on the processing

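Of 13 alternatives, DESeq2, RLE and upper-quartile factors, at least 10 counts in every heart, a robust prior and removal of globin and mitochondrially encoded genes called 0 members. With no filter on low counts, edgeR called 1 of 40 members higher (Iigp1) and 2 lower (Gbp3 and Oasl2). In that fit 618 of 28183 genes (2.19%) were called, 294 of them lower. DESeq2 called 400 genes, against 214 by edgeR. The 400 were 1.42% of 28183 genes with at least 1 count, including genes to which DESeq2 gave no adjusted p. The 214 were 1.44% of the 14866 genes that passed the count filter, so the 2 shares have unlike bases. DESeq2 gave no adjusted p for 9 members. When each heart was left out in turn, 80 to 158 genes were called in all. Of the members, 0 to 1 were called higher (Iigp1, without mouse 368) and 0 to 1 lower (Gbp3, without mouse 370). The share of all tested genes called in either direction was 0.523% (80 of 15302) without mouse 368 and 1.03% (158 of 15329) without mouse 370. The median log2 fold change of the members stayed below 0 in all 13 alternatives, from -0.36 (without mouse 379 or mouse 370) to -0.14 (without mouse 381). Of the 34 members below 0, 25 were below 0 in every alternative that could be fitted, and the other 9 were above 0 in at least 1. No paired analysis was possible because the labels give no replicate numbers shared between the genotypes and do not say which hearts, if any, shared a litter. The least abundant tested members had few counts, at most 36 in a heart for Zbp1 and 29 for Mx1.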

Other observations

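Ube2l6, the conjugating enzyme for Isg15, was measured at 13.8, 14.8 and 8.59 CPM in resistant hearts and 10.4, 29.6 and 5.81 CPM in sensitive hearts. Its highest heart was mouse 380, which also had the highest red blood cell markers, and the part of those cells in this value was not tested. The log2 fold change of Ube2l6 was 0.29 (adjusted p = 0.786 by edgeR). Among the 53 tested genes of the further list, 11 lay above 0, with Ifitm1 highest at 0.45. The Schlafen genes Slfn2 and Slfn9 both had a log2 fold change of -0.61 without overlap between genotypes (adjusted p of 0.16 and 0.29), while Slfn8 was at 0.03. Of all tested genes, 9.98% were lower without overlap.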
